A study of Equus caballus with 23 samples.

Results

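The 6 genes described here encode the enzymes that move the reducing power of cytosolic NADH towards the mitochondrion. GPD1, GPD1L and GPD2 belong to the glycerol phosphate shuttle, and MDH1, GOT1 and GOT2 to the malate-aspartate shuttle. They were taken by symbol from a list of shuttle enzymes, and that list was chosen with earlier results of these data known. All 6 were found among the 26991 genes of the count table, and all 6 were among the 11545 genes that passed the filter on low counts. RNA was sequenced from 2 mm needle biopsies of the gluteus medius, a locomotor muscle of the hindquarters, taken from Arabian horses at 3 stages of flat race training. T0 (n = 5, with 3 males and 2 females) came from untrained animals of 2.5 years, T1 (n = 8, with 4 of each sex) from animals of 3 years that had completed the intense gallop phase ahead of the season, and T2 (n = 10, with 7 males and 3 females) from animals of 3 years at the close of the season. Breed and muscle were shared by all groups, and the labels name no drug or engineered allele. Libraries are named m1 to m23, as labelled. The labels leave unsaid whether 1 horse gave more than 1 biopsy, so the libraries were compared as unpaired, and a p-value here reflects only how far libraries of 1 time point spread. The age of T0 differed from that of T1 and T2, so age and training cannot be told apart in a comparison with T0.

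Glycolysis turns NAD+ into NADH in the cytosol, and the inner mitochondrial membrane does not let NADH through. In the glycerol phosphate shuttle, cytosolic GPD1 spends NADH to reduce dihydroxyacetone phosphate to glycerol 3-phosphate, and GPD2, on the outer face of the inner membrane, oxidises it back and passes the electrons to ubiquinone. In the malate-aspartate shuttle, cytosolic MDH1 reduces oxaloacetate to malate, a carrier brings malate into the matrix, MDH2 forms NADH there, and the aminotransferases GOT1 and GOT2 return the carbon as aspartate. Fast glycolytic muscle fibres are known for high cytosolic glycerol phosphate dehydrogenase activity, and oxidative muscle and heart for reliance on the malate-aspartate route.

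From untrained muscle to muscle after the gallop phase, 3 members passed the test. GPD1 and GPD2 of the glycerol phosphate shuttle fell to 0.657 and 0.655 times the T0 level. MDH1, the cytosolic dehydrogenase of the malate-aspartate shuttle, rose 1.69-fold. In the 23 fits that left out 1 library, GPD1 was called 21 times, GPD2 7 times and MDH1 23 times. All 3 calls were lost with a score of fibre type genes, defined below, as a covariate. By the end of the season GPD1 had risen again, to 1.53 times its T1 level, whereas MDH1 was still 1.55 times as high as in T0. GOT1, GOT2 and GPD1L did not pass edgeR's test with all libraries and no covariate in any comparison. Levels are given as CPM, the usual depth-scaled count of RNA-seq, with library sizes scaled by TMM, and changes as log2 fold changes from edgeR's quasi-likelihood F test. A change was called at an adjusted p below 0.05 over all 11545 genes. The comparisons share libraries, T1 minus T0 and T2 minus T1 the T1 libraries for example, so the values of one comparison are no independent evidence on another. The files used give no gene lengths, so levels were not compared between genes.

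Library size, fibre genes and the share of mitochondrial transcripts moved with the time points. Mitochondrially encoded genes took 36.0% to 55.0% of counts in T0, 44.7% to 56.7% in T1 and 42.5% to 52.3% in T2, and m12 was the highest of T0. With nuclear genes alone in the fit, the members' calls were the same. The libraries held 12604125 to 17477172 counts in T0, 15417737 to 23641809 in T1 and 12185608 to 19804694 in T2. All 9 markers of skeletal muscle fibres were found, with summed levels of 49398 to 116140 CPM in T0, 85592 to 174090 CPM in T1 and 50929 to 112100 CPM in T2. The 15 slow fibre contractile genes summed to 8815 to 34025 CPM in T0, 31469 to 140780 CPM in T1 and 11091 to 44569 CPM in T2. The 13 tested identifiers of fast fibre genes summed to 53123 to 116550, 3300 to 58384 and 53637 to 126820 CPM in the same order. The T1 library m3 stood apart with the highest slow and the lowest fast sum of all libraries. MYH7, the slow myosin heavy chain gene, had 8248 ± 6120 CPM for T0 (n = 5), 29959 ± 15576 for T1 (n = 8) and 8450 ± 6652 for T2 (n = 10), each with its SD. MYH7 is also 1 of the 9 muscle fibre markers, whose sum averaged 78340 CPM in T0 and 110540 CPM in T1. Much of that higher sum was thus MYH7. Of the same list, ENO3 and TNNT3 had means of 4625 and 6878.5 CPM in T0 and lower ones, 2312 and 3270 CPM, in T1. The other markers had higher means in T1. In T1 minus T0, 1 of the 9 was called higher and 1 lower. In bulk muscle, fewer cells or fibres of a type and less RNA of a gene per cell cannot be told apart.

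**Figure D1:**
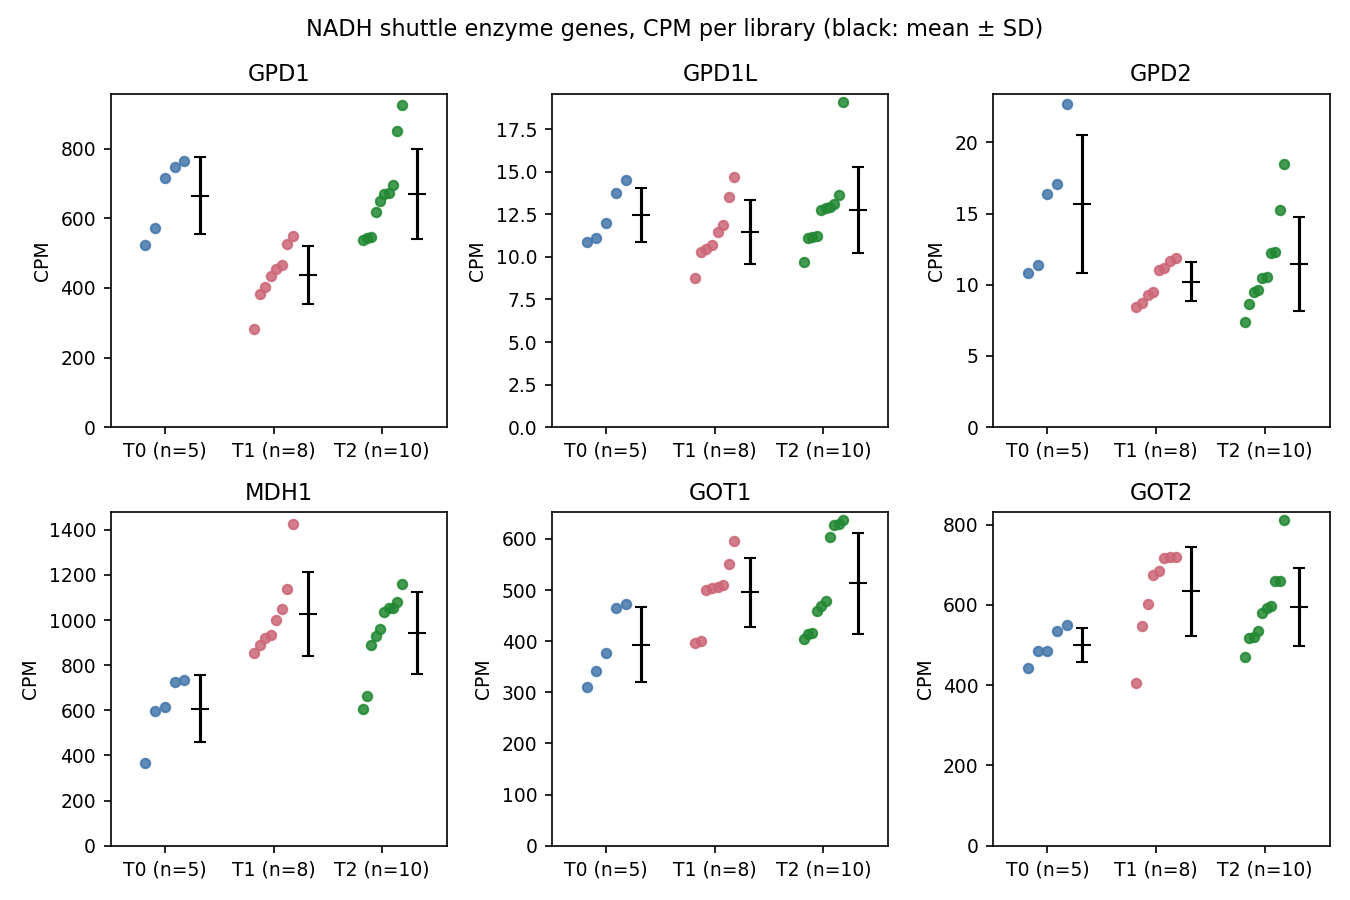
Level of each of the 6 shuttle genes in CPM (y axis, from 0) in every library, by time point (x axis), with libraries sorted by level within a time point and the mean ± SD in black. GPD1 is lowest in T1, the 8 T1 values of MDH1 lie above all 5 T0 values, and 1 T2 library has a GPD1L level of 19.1 CPM.

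GPD1 encodes the cytosolic NADH-dependent glycerol 3-phosphate dehydrogenase and lies on chromosome 6 from 67709023 to 67714536 (ENSECAG00000001568, build not given in the sources used here). Its level in T0 was 524 CPM in m8, 573 in m9, 765 in m10, 716.5 in m12 and 748 in m13. In T1 it ran from 283 CPM in m11 through a median of 444 to 550 in m6, and in T2 from 537 in m21 through a median of 659 to 926 in m17. The means were 665 ± 109 CPM for T0 (n = 5), 437 ± 83.9 for T1 (n = 8) and 671 ± 129 for T2 (n = 10), each with its SD. T1 was thus the lowest of the 3 time points, its highest library, m6, lay above the lowest T0 library, m8, and above the lowest T2 library, m21, and T0 and T2 covered much the same range. GPD1 fell in T1 minus T0 with a log2 fold change of -0.61 ± 0.16 (SE, 95% interval -0.94 to -0.27, adjusted p = 0.0243). It rose in T2 minus T1 by 0.62 ± 0.14 (SE, 95% interval 0.33 to 0.90, adjusted p = 0.00194). T2 minus T0 was 0.01 ± 0.16 (95% interval -0.31 to 0.34, adjusted p = 0.969), an interval that leaves room for a change of either sign. The fall in T1 missed the threshold without T0 library m10 (-0.54, adjusted p = 0.0811), without m13 (-0.56, adjusted p = 0.0643) and without m3 and m12 together (-0.54, adjusted p = 0.0539). The later rise was called in all 23 fits that left out 1 library.

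GPD1L encodes another cytosolic enzyme of the same family, known also for its tie to the cardiac sodium channel (ENSECAG00000018150, chromosome 16, 51956770 to 52001009). It was sparsely covered, with 105 to 362 counts per library. In T0 it had 10.9 CPM in m8, 14.5 in m9, 11.996 in m10, 11.1 in m12 and 13.7 in m13. In T1 it ran from 8.75 CPM in m6 through a median of 11.1 to 14.7 in m7, and in T2 from 9.73 in m15 through a median of 12.8 to 19.1 in m21. The means of 12.5 ± 1.61 CPM for T0 (n = 5), 11.5 ± 1.89 for T1 (n = 8) and 12.8 ± 2.53 for T2 (n = 10), each with its SD lay within 1 SD of each other, and the 3 ranges overlapped. The log2 fold change was -0.12 ± 0.14 in T1 minus T0 (SE, 95% interval -0.41 to 0.17, adjusted p = 0.684), 0.15 ± 0.12 in T2 minus T1 (95% interval -0.09 to 0.40, adjusted p = 0.34) and 0.03 ± 0.14 in T2 minus T0 (95% interval -0.24 to 0.31, adjusted p = 0.89). In T1 minus T0 the 95% interval of GPD1 (-0.94 to -0.27) overlaps that of GPD1L. The difference between the genes was not tested.

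GPD2 encodes the mitochondrial, FAD-linked dehydrogenase that completes the shuttle (ENSECAG00000018290, chromosome 18, 37677926 to 37776266). It had 92 to 403 counts per library. In T0 it had 10.8 CPM in m8, 11.4 in m9, 16.4 in m10, 17.1 in m12 and 22.7 in m13. In T1 it ran from 8.41 CPM in m3 through a median of 10.3 to 11.9 in m6, and in T2 from 7.38 in m17 through a median of 10.497 to 18.4 in m21. The T0 libraries m10, m12 and m13 lay above all T1 libraries, whereas m8 and m9 lay within the T1 range. The means were 15.7 ± 4.84 CPM for T0 (n = 5), 10.2 ± 1.39 for T1 (n = 8) and 11.4 ± 3.29 for T2 (n = 10), each with its SD, so that T0 was the highest. GPD2 fell in T1 minus T0 with a log2 fold change of -0.61 ± 0.19 (SE, 95% interval -0.995 to -0.226, adjusted p = 0.0474). It did not pass in T2 minus T1 (0.16 ± 0.16, adjusted p = 0.465) or in T2 minus T0 (-0.45 ± 0.18, 95% interval -0.82 to -0.08, adjusted p = 0.0853). The call in T1 was close to the threshold. It was made in 7 of the 23 fits that left out 1 library and in 6 of 11 other settings. It was lost in limma voom (-0.47, adjusted p = 0.0585), and without T0 library m13 the value was -0.43 (adjusted p = 0.184). Conversely, T2 minus T0 was called without T2 library m21 (-0.55, adjusted p = 0.0284).

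MDH1, the cytosolic malate dehydrogenase, had the most counts of the members, 6504 to 21157 per library (ENSECAG00000010849, chromosome 15, 37984638 to 38003560). In T0 its level was 726 CPM in m8, 595 in m9, 617 in m10, 733 in m12 and 366 in m13. In T1 it ran from 853 CPM in m7 through a median of 967 to 1426 in m3, and in T2 from 606 in m15 through a median of 998 to 1162 in m14. All 8 T1 libraries lay above all 5 T0 libraries, whereas 2 T2 libraries, m15 and m19 (662 CPM), lay within the T0 range. The means were 607 ± 149 CPM for T0 (n = 5), 1027 ± 186 for T1 (n = 8) and 943 ± 181 for T2 (n = 10), each with its SD. MDH1 rose in T1 minus T0 with a log2 fold change of 0.76 ± 0.18 (SE, 95% interval 0.38 to 1.14, adjusted p = 0.0143) and was called in all 23 fits that left out 1 library. It was higher in T2 minus T0 by 0.64 ± 0.18 (95% interval 0.27 to 1, adjusted p = 0.019). T1 and T2, neighbours in the order of levels, did not differ beyond their spread (-0.12 ± 0.15, 95% interval -0.43 to 0.18, adjusted p = 0.568). Without T0 library m13, the lowest, T2 minus T0 was 0.50 and missed the threshold (adjusted p = 0.0694).

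GOT1, the cytosolic aspartate aminotransferase, lies on chromosome 1 from 30198127 to 30227528 (ENSECAG00000000095). In T0 it had 473 CPM in m8, 465.6 in m9, 377 in m10, 342 in m12 and 310 in m13. In T1 it ran from 396 CPM in m11 through a median of 505 to 595 in m4, and in T2 from 405 in m23 through a median of 473 to 636 in m18. The T0 libraries m10, m12 and m13 lay below every T1 and T2 library, and m8 and m9 lay among them. The means were 393.5 ± 73.0 CPM for T0 (n = 5), 495 ± 67.9 for T1 (n = 8) and 514 ± 98.6 for T2 (n = 10), each with its SD. No comparison passed: the log2 fold change was 0.33 ± 0.16 in T1 minus T0 (95% interval 0.01 to 0.65, adjusted p = 0.208), 0.05 ± 0.13 in T2 minus T1 (adjusted p = 0.796) and 0.38 ± 0.15 in T2 minus T0 (95% interval 0.07 to 0.69, adjusted p = 0.0782). DESeq2 called T2 minus T0 at 0.39 (adjusted p = 0.0287).

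GOT2, its mitochondrial partner, lies on chromosome 3 from 10688719 to 10710775 (ENSECAG00000016504). In T0 it had 486 CPM in m8, 485 in m9, 443 in m10, 550 in m12 and 534 in m13. In T1 it ran from 405 CPM in m3 through a median of 679 to 719 in m5, and in T2 from 469 in m15 through a median of 585 to 811 in m17. T1 libraries m3 and m11 (546 CPM) lay within or below the T0 range, and the other 6 lay above it. The means were 499.8 ± 42.7 CPM for T0 (n = 5), 633 ± 111 for T1 (n = 8) and 594 ± 97.8 for T2 (n = 10), each with its SD. The log2 fold change was 0.34 ± 0.15 in T1 minus T0 (95% interval 0.04 to 0.65, adjusted p = 0.171), -0.09 ± 0.12 in T2 minus T1 (adjusted p = 0.603) and 0.25 ± 0.14 in T2 minus T0 (adjusted p = 0.231), and none passed. Without T1 library m3, T1 minus T0 was 0.43 and was called (adjusted p = 0.0471), as it was in limma voom (0.45, adjusted p = 0.0106).

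**Figure D2:**
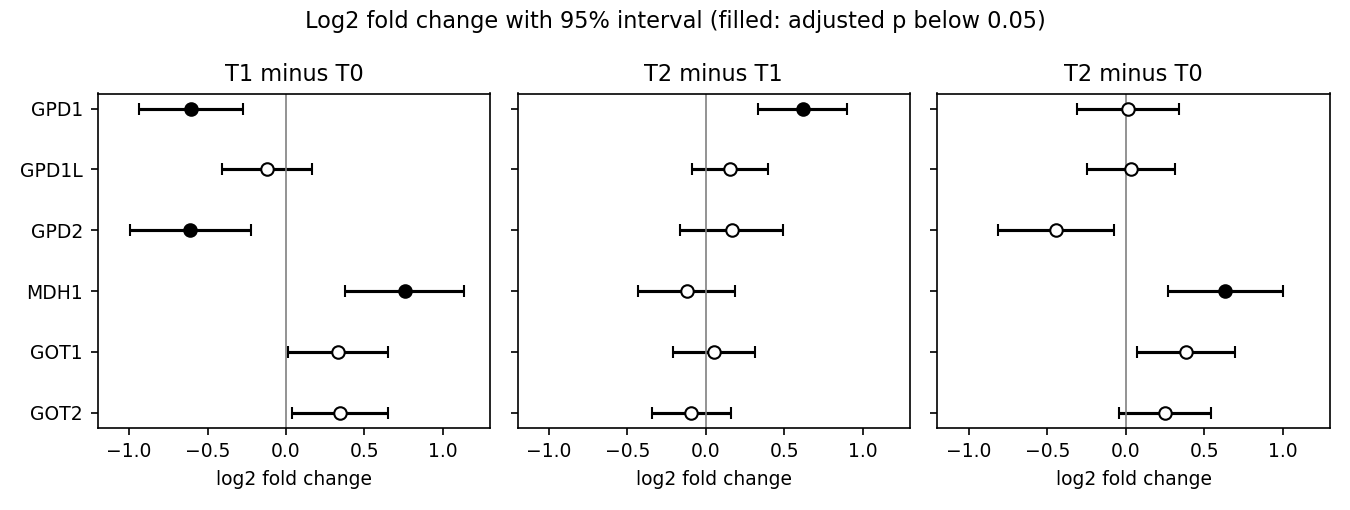
Log2 fold change of each member (x axis) in the 3 comparisons with its 95% interval, with filled points for an adjusted p below 0.05. In T1 minus T0 the glycerol phosphate genes GPD1 and GPD2 lie below 0 and MDH1 above it, in T2 minus T1 only GPD1 is filled (0.62), and in T2 minus T0 only MDH1 (0.64).

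Counted over the 6 members, 1 rose and 2 fell in T1 minus T0, where 3.57% of all tested genes were called higher and 3.34% lower. In T2 minus T1, 1 rose and 0 fell, where 12.6% of genes were called higher and 15.1% lower. The edgeR count of 0 falls there stayed 0 at an unadjusted p below 0.05, in DESeq2 and in limma voom. In T2 minus T0, 1 rose, where 6.73% of genes were called higher. In the same comparison 0 fell in edgeR (1 at an unadjusted p below 0.05, 0 in DESeq2 and 0 in limma voom), beside 9.3% called lower. With 6 genes, the single rise in T2 minus T1 is near the background share. MDH1 in T1 minus T0 was the 1 member whose groups did not overlap, as in 2.98% of all tested genes. In T2 minus T1 and T2 minus T0, where 2.23% and 2.67% of tested genes did not overlap, 0 members were of that kind. The median log2 fold change of the members was 0.11, 0.10 and 0.14 in the 3 comparisons in this order, beside -0.02, -0.01 and -0.03 over all tested genes.

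Ratios between members are given without a test, to describe how they changed between time points. Gene length cancels in such a change but not in the level of a ratio. The sign or size of a ratio thus does not rank the genes. The log2 ratio of GPD1 to MDH1 was 0.16 ± 0.56 in T0 (SD, n = 5, from -0.47 to 1.03), -1.24 ± 0.46 in T1 (SD, n = 8, from -1.89 to -0.70), then -0.49 ± 0.35 in T2 (SD, n = 10, from -0.95 to 0.02). T0 and T1 did not overlap in this ratio, and T2 lay between them by mean and overlapped both. MDH1 alone already separated T0 from T1, so this is not a further result. How many other gene pairs separate in this way was not counted. The ratio of GPD1 to its mitochondrial partner GPD2 was 5.44 ± 0.24 in T0, 5.39 ± 0.36 in T1 and 5.89 ± 0.58 in T2 (SD, n = 5, 8 and 10), so the cytosolic and mitochondrial genes kept nearly the same mean ratio from T0 to T1. The ratio of GOT1 to GOT2 was -0.36 ± 0.35, -0.34 ± 0.18 and -0.22 ± 0.37 in the same order, within 1 SD of each other.

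The remaining parts of the malate-aspartate shuttle were measured in 4 of 4 listed genes. MDH2, the matrix malate dehydrogenase, had 610 ± 57.0 CPM for T0 (n = 5), 761 ± 64.6 for T1 (n = 8) and 810 ± 142 for T2 (n = 10), each with its SD. It was higher in T2 minus T0 (log2 fold change 0.41, SE 0.13, adjusted p = 0.0379), and had 0.32 ± 0.14 in T1 minus T0 (adjusted p = 0.164). SLC25A11, the malate carrier, had 0.37 ± 0.14 in T2 minus T0 (adjusted p = 0.0771). SLC25A12, an aspartate-glutamate carrier of muscle, had 0.41 ± 0.16 (adjusted p = 0.0799), and SLC25A13, the related carrier best known from liver and scarce here at 2.52 ± 0.82 CPM in T0, had 0.26 (adjusted p = 0.412). The medians of the 4 were 0.26 in T1 minus T0, 0.13 in T2 minus T1 and 0.39 in T2 minus T0. In edgeR 0 of the 4 were called higher in T1 minus T0 (2 at an unadjusted p below 0.05, 0 in DESeq2, 2 in limma voom) and 0 in T2 minus T1 (1, 0 and 0). In T2 minus T0 the 1 called gene became 3 in DESeq2 and 2 in limma voom. MDH2 was called in 16 of the 23 fits that left out 1 library, its largest adjusted p among them being 0.084.

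The genes that make and use cytosolic NADH also changed between time points. GAPDH, the glycolytic step that produces NADH, fell in T1 minus T0 (log2 fold change -0.74 ± 0.21, SE, adjusted p = 0.0349) and rose in T2 minus T1 by 0.82 ± 0.18 (adjusted p = 0.00186). Its fall in T1 was called in 16 of the 23 fits that left out 1 library, with an adjusted p of at most 0.0904. LDHA, the lactate dehydrogenase subunit of glycolytic muscle, went from 1808 ± 636 CPM in T0 (SD, n = 5) to 734 ± 336 in T1 (SD, n = 8), with 1754 ± 512 in T2 (SD, n = 10). LDHB, the subunit of oxidative muscle and heart, went the other way, from 171 ± 97.5 to 856 ± 627 and then 285 ± 123 CPM. Each passed in T1 minus T0, with log2 fold changes of -1.30 ± 0.33 and 2.32 ± 0.44 (adjusted p = 0.0175 and 0.00367), and in T2 minus T1, with 1.26 ± 0.28 and -1.59 ± 0.33 (adjusted p = 0.00221 and 0.00133). Without T0 library m10, LDHA in T1 minus T0 was -1.12 (adjusted p = 0.0717). In T2 minus T0 all 3 missed the threshold, with values of 0.08 for GAPDH, -0.04 for LDHA and 0.73 for LDHB (adjusted p = 0.819, 0.943 and 0.205).

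Of the genes that move lactate and pyruvate, 6 of 7 were tested, and 3 rose in T1 minus T0. These were the monocarboxylate transporter genes SLC16A1 (log2 fold change 1.11 ± 0.21, SE, adjusted p = 0.00292) and SLC16A7 (2.34 ± 0.46, adjusted p = 0.00444) and MPC2, a subunit of the mitochondrial pyruvate carrier (0.52 ± 0.15, adjusted p = 0.0349). The rise of MPC2 missed the threshold without any of T1 library m1 and T0 libraries m9, m10 and m13 (highest adjusted p 0.0922). In T2 minus T1, SLC16A1 fell by 0.56 and SLC16A7 by 1.93 on the log2 scale (adjusted p = 0.0128 and 0.000497), and SLC16A3, the lactate exporter of glycolytic fibres, rose by 1.02 (adjusted p = 0.0463). The call of SLC16A3 held in 8 of the 23 fits that left out 1 library. The pyruvate carrier subunits MPC1 and MPC2 were, like MDH1, higher at the end of the season than in T0, by 0.60 ± 0.15 (adjusted p = 0.0126) and 0.48 ± 0.14 (adjusted p = 0.0254), and had 0.11 and -0.04 in T2 minus T1 (adjusted p = 0.544 and 0.848). Without T0 library m9 or m13, MPC2 in T2 minus T0 missed the threshold (adjusted p = 0.0728 and 0.0703).

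Glycerol 3-phosphate is made by GPD1 from a glycolytic intermediate and is also the backbone of glycerolipids, so its suppliers and users were counted (9 of 10 listed genes tested). TPI1 and ALDOA, the glycolytic enzymes that supply dihydroxyacetone phosphate, fell in T1 minus T0 by log2 fold changes of -0.76 ± 0.19 (SE, adjusted p = 0.019) and -0.88 ± 0.23 (adjusted p = 0.0228), as GPD1 did. Like the fall of GPD1, these calls were lost without T0 library m10 (adjusted p = 0.0685 for TPI1 and 0.061 for ALDOA), and that of ALDOA also without m13 (adjusted p = 0.0773). Without m3 and m12 together TPI1 was -0.62 (adjusted p = 0.0558) and ALDOA -0.69 (adjusted p = 0.0668). In T2 minus T1 they rose by 0.88 and 1.01 (adjusted p = 0.000513 and 0.000781). GK, glycerol kinase, rose in T1 by 0.65 ± 0.17 (adjusted p = 0.0196) and fell in T2 minus T1 by 0.66 (adjusted p = 0.00106), the former with an adjusted p of 0.0596 without T0 library m13. The acyltransferase genes that use glycerol 3-phosphate or its first product fell in T2 minus T1: GPAM by 1.98, AGPAT2 by 0.78 and AGPAT3 by 0.53 on the log2 scale (adjusted p = 0.000313, 0.00848 and 0.0167). PGP, a glycerol 3-phosphate phosphatase, rose by 0.59 (adjusted p = 0.0202). In T2 minus T0 edgeR called 0 of the 9 higher (0 at an unadjusted p below 0.05, in DESeq2 and in limma voom) and 0 lower (3 unadjusted, 0 in DESeq2, 2 in limma voom).

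Of the genes around glutamate, aspartate and malate, 11 of 14 were tested, and most of the calls were malic enzymes, which convert malate to pyruvate. The mitochondrial genes ME2 and ME3 rose in T1 minus T0 by log2 fold changes of 0.98 ± 0.23 (SE, adjusted p = 0.0116) and 1.40 ± 0.23 (adjusted p = 0.00113), and ME3 fell in T2 minus T1 by 0.85 (adjusted p = 0.00112). The cytosolic ME1 instead rose in T2 minus T1 by 0.76 ± 0.13 (adjusted p = 0.000243) and was higher in T2 minus T0 by 0.47 ± 0.15 (adjusted p = 0.0389, called in 15 of the 23 fits that left out 1 library). GPT2, the mitochondrial alanine aminotransferase, fell in T2 minus T1 by 0.46 (adjusted p = 0.00322). The other 7 tested genes of this list did not pass in edgeR with all 23 libraries in 1 model in any comparison. Other tools or fits called 2 of them. ASNS, asparagine synthetase, was called in T2 minus T1 in DESeq2 (0.62, adjusted p = 0.0469) and limma voom (0.69, adjusted p = 0.0255). In edgeR it was called there with only those time points in the fit (0.61, adjusted p = 0.0411). It was also called there in 5 of the 23 fits that left out 1 library. In T1 minus T0 limma voom called ASNS (-0.82, adjusted p = 0.0485) and ASS1, argininosuccinate synthase (-0.59, adjusted p = 0.0407).

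**Figure D3:**
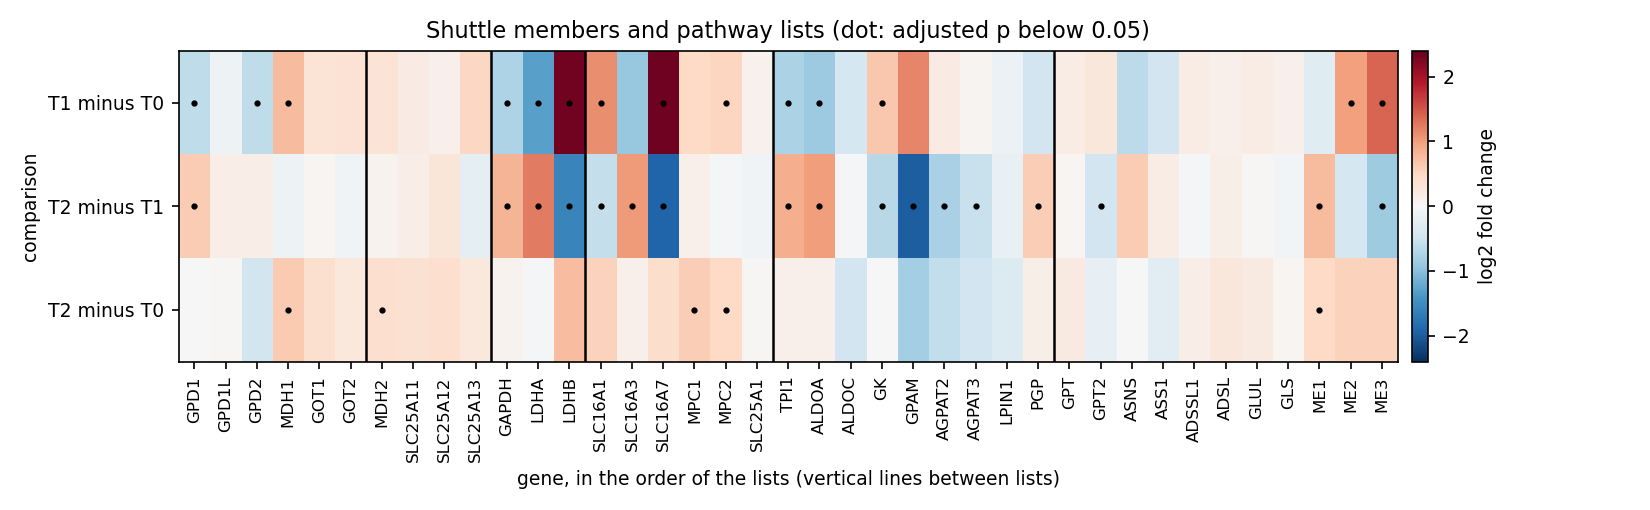
Log2 fold change (colour scale) of the 6 members and of the listed neighbours in metabolism (x axis, with vertical lines between lists) in the 3 comparisons (y axis), with a dot for an adjusted p below 0.05. GPD1 has the same signs as GAPDH, LDHA, TPI1 and ALDOA in the upper pair of rows, and the dots of the lowest row fall on MDH1, MDH2, MPC1, MPC2 and ME1.

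Members differed in which genes followed them most closely over the 23 libraries. Likeness was the Pearson r of log2 CPM over all 23 libraries, ranked among the 6401 named genes whose log2 CPM averaged 2 or more, and r over deviations from the time point means is given after it. It is a description, since libraries share depth and fibre composition. The genes most like GPD1 were the glycolytic genes ENO3 (0.953 and 0.899), TPI1 (0.951 and 0.891) and ALDOA (0.933 and 0.852). Those most like MDH1 were HSPD1, the mitochondrial chaperonin gene (0.941 and 0.923), MPC1 (0.925 and 0.927) and ACOT13 (0.925 and 0.838). Those most like GOT2 were genes of the citric acid cycle and respiratory chain, SDHA (0.807 and 0.767), DLST (0.788 and 0.723) and NDUFS1 (0.784 and 0.719). GOT1 was closest to GTF2H3 (0.871 and 0.824), MRPL15 (0.84 and 0.766) and CCDC121 (0.833 and 0.807), and GPD2 to NFATC3 (0.812 and 0.754), MLXIP (0.776 and 0.676) and AHCYL2 (0.769 and 0.765). GPD1L reached only 0.646 with DIRC2, 0.64 with NEDD4L and 0.624 with TMEM62.

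Fibre type genes differed between the time points. The median log2 fold change of the 15 slow fibre genes was 1.96 in T1 minus T0. It was -1.49 in T2 minus T1 and 0.54 in T2 minus T0. That of the 13 tested fast fibre identifiers was -1.07, 1.17 and -0.02. These 13 carry 12 symbols, and MYH1, MYH4 and PVALB were not found by symbol. MYH2 stands for both ENSECAG00000022909 (-3.42 in T1 minus T0, adjusted p = 0.00364) and ENSECAG00000024667 (0.17, adjusted p = 0.892). A fibre score, the mean log2 CPM of the slow list minus that of the fast list, had a range of -5.49 to -3.64 at T0, -2.47 to 3.81 at T1 and -4.71 to -2.62 at T2, so that T1 overlapped neither T0 nor T2. With the score as a covariate the log2 fold change in T1 minus T0 was -0.26 for GPD1 (adjusted p = 0.623), -0.39 for GPD2 (adjusted p = 0.589) and 0.33 for MDH1 (adjusted p = 0.552), and GPD1 in T2 minus T1 was 0.34 (adjusted p = 0.13). MDH1 in T2 minus T0, where the scores overlap, was 0.57 and was called (adjusted p = 0.0179). Where the score separates the groups, fibre type and time point cannot be told apart.

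Within a time point the relation of the members to the fibre score was examined in T1 and T2 in 12 relations. In T1 (n = 8), GOT2 was lower where the score was higher, with r = -0.982 (exact permutation p = 0.00268, adjusted p = 0.0321) and rho = -0.762 (exact permutation p = 0.0368, adjusted p = 0.147). Without m3 and m11, the libraries farthest from the median score, r was -0.825 (exact permutation p = 0.15, adjusted p = 0.3), so the sign held and the call was lost. GPD1 in T1 had rho = -0.929 (exact permutation p = 0.00223, adjusted p = 0.0268) with r = -0.594 (exact permutation p = 0.225, adjusted p = 0.472), and r = -0.808 without m3 and m11 (exact permutation p = 0.0389, adjusted p = 0.189). MDH1 in T1 had r = 0.86 (exact permutation p = 0.0436, adjusted p = 0.174) and rho = 0.833 (exact permutation p = 0.0154, adjusted p = 0.0923), and r = 0.836 without them (exact permutation p = 0.0472, adjusted p = 0.189). GOT1 had r = -0.827 (exact permutation p = 0.0218, adjusted p = 0.131) and -0.459 without m3 and m11. In T2 (n = 10) 0 of the 6 relations passed correction by r or rho, the nearest being GPD1 with r = -0.603 (permutation p = 0.0639, adjusted p = 0.192) and r = -0.192 without m17 and m23.

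**Figure D4:**
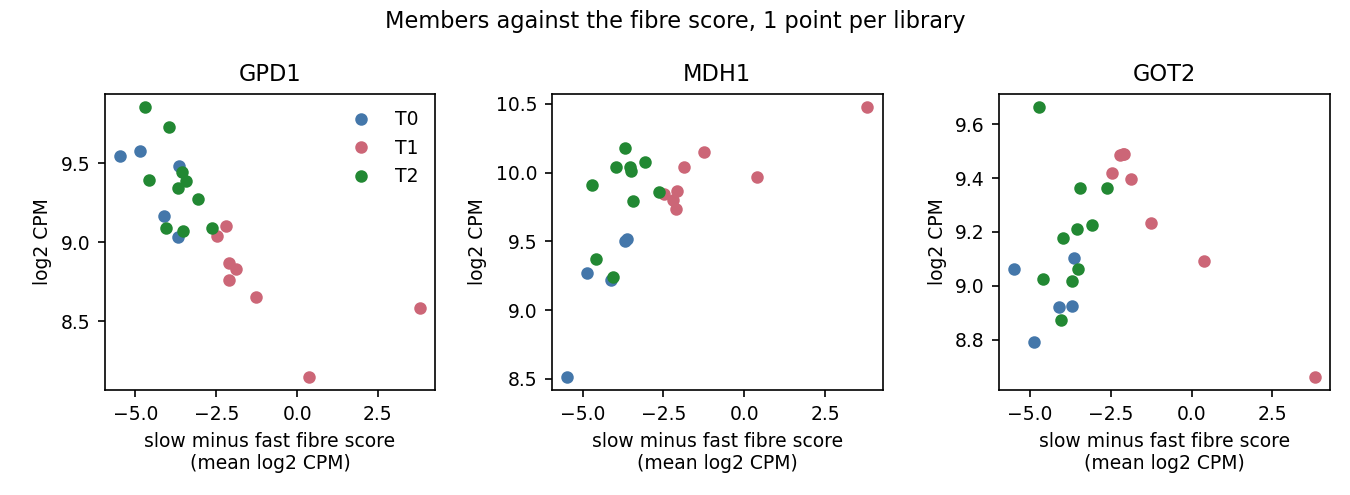
Log2 CPM of GPD1, MDH1 and GOT2 (y axes, which do not start at 0) against the slow minus fast fibre score (x axis, difference of mean log2 CPM), with 1 point per library coloured by time point. The T1 libraries lie to the right of all T0 libraries, and the T1 library m3 at a score of 3.81 has the highest MDH1 and the lowest GOT2 level of all libraries.

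GPD1 is also abundant in fat cells, so markers of other cell types that a biopsy can hold were read beside it. Of 11 adipocyte markers, 5 were found, and their summed level was 83.2 to 186 CPM in T0, 128 to 340 CPM in T1 and 128 to 284 CPM in T2. The log2 fold changes in T1 minus T0 and T2 minus T1 were 1.03 and -0.91 for LPL (adjusted p = 0.0303 and 0.00485). For DGAT2 they were 1.24 and -1.10 (adjusted p = 0.0153 and 0.00175). Both genes were opposite in sign to GPD1. The other 3 were not called in either comparison. ADIPOQ had -1.37 and 0.56 and LIPE -0.29 and 0.14, with the signs of GPD1, and FABP4 had 0.09 and 0.44. The fat hormone gene ADIPOQ had 7.26 ± 6.50 CPM for T0 (n = 5), 2.83 ± 1.91 for T1 (n = 8) and 4.17 ± 2.25 for T2 (n = 10), each with its SD. Fibroblast markers, 6 of 8 found, summed to 92.1 to 391 CPM in T0, 66.1 to 168 in T1 and 82.8 to 287 in T2. Their median log2 fold change was -1.13 in T1 minus T0, where COL3A1 (-1.45, adjusted p = 0.0404) and DCN (-0.82, adjusted p = 0.0394), named after their values were seen, were called lower, and 0.55 in T2 minus T1, with the signs of GPD1. Endothelial markers, 7 of 8 found, summed to 206 to 297, 172 to 251 and 151 to 235 CPM in the same order. Smooth muscle and pericyte markers, 6 of 7 found, summed to 1071 to 2783, 1434 to 3432 and 1205 to 2341 CPM. Most of this sum was DES, a gene of muscle fibres, with means of 1559, 2087 and 1542 CPM. The median log2 fold change of the list was -0.48 in T1 minus T0 and 0.15 in T2 minus T1, the signs of GPD1. DES had the opposite signs (0.42 and -0.44). RGS5 (-0.17 and -0.65) and PDGFRB (-0.47 and -0.31) were negative in both, and RGS5 was called lower in T2 minus T1 (adjusted p = 0.00434). Macrophage and lymphocyte markers, 3 of 8 found, summed to at most 13.6 CPM and nerve markers, 2 of 6 found, to at most 12.4 CPM in any library. In T2 minus T1 the immune markers CSF1R (-0.77, adjusted p = 0.0404) and PTPRC (-1.10, adjusted p = 0.0262) were called lower. CD68 was not called (0.23, adjusted p = 0.305). Of the nerve markers, MBP was called higher there (0.40, adjusted p = 0.0472) and PMP22 was not (0.40, adjusted p = 0.133). Of 6 erythroid symbols, 0 were found. The part of these cell types in the members' changes was not tested.

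Sex was unevenly spread over the time points and was tested with time point in the model. Among the members 0 were called by sex in edgeR (0 at an unadjusted p below 0.05 and 0 in limma voom), beside 0% of the 11545 tested genes (719 at an unadjusted p below 0.05 and 3 in limma voom). The members with the smallest p were GPD2, with a male minus female log2 fold change of -0.26 ± 0.14 (SE, adjusted p = 0.802), and MDH1, with 0.24 ± 0.13 (adjusted p = 0.813). The interaction of sex and time point called 0 genes in edgeR, with 305 at an unadjusted p below 0.05 and 0 of them members. It was run with no other tool.

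Each member had 1 transcript in the files, whose counts equalled the gene's in 23 of 23 libraries, so the data hold nothing on isoforms. Over the 12334 transcripts tested, the GPD2 transcript had an adjusted p of 0.0634 in T1 minus T0, and the calls of GPD1 and MDH1 stood. In the authors' deposited table for T1 minus T0, made with DESeq2, the log2 fold change was -0.56 for GPD1 (adjusted p = 0.0045), -0.56 for GPD2 (adjusted p = 0.0057) and 0.68 for MDH1 (adjusted p = 0.00125), with adjusted p of 0.13 for GOT1, 0.115 for GOT2 and 0.596 for GPD1L. The authors' deposited table for T2 minus T1 gives 0.58 for GPD1 (adjusted p = 9.39e-05). The authors' deposited table for T2 minus T0 gives 0.55 for MDH1 (adjusted p = 0.00672) and 0.34 for GOT1 (adjusted p = 0.0727).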

How the data were processed

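Expected counts of genes and transcripts were deposited by the authors for all 23 libraries, per the file headers. The labels describe RNA with an integrity number above 8.5, sequenced for 50 cycles with 6 technical repetitions, and do not say how repetitions were pooled. FastQC, STAR, RSEM and DESeq2 are listed without versions in the submitters' processing notes, and no genome build is given in the sources used here. The authors' deposited comparison tables give each gene's mean normalized count, a signal, its log2 fold change with a standard error, and its p-value, plain and adjusted. Their group letters were matched to time points through that mean. Symbols and positions come from these tables, which annotate 9628 identifiers, 8842 with a symbol.

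The whole-number expected counts were scaled by TMM and filtered with filterByExpr (minimum count 10, minimum total 15), which kept 99.93% of counts. All 3 time points entered 1 model in edgeR 4.0.16 under R 4.3.3, with the robust quasi-likelihood F test, and p-values were adjusted by Benjamini-Hochberg. A standard error is the log2 fold change divided by the root of F, and log2 CPM has a prior count of 2. No gene was imputed. The members and lists were chosen with earlier results of these data known. Genes were named by a rule: all members, called genes of the listed pathways, and the 3 genes most like each member. Relations with the fibre score used exact permutation tests in T1 and 100000 permutations in T2, all two-sided. Alternatives were median ratio factors, nuclear genes alone, no filter, DESeq2 1.42.0, limma 3.58.1 voom, sex, 1 surrogate variable (sva 3.50.0) or the fibre score as covariates, a fit that was not robust, only the compared time points, and leaving out libraries. The test was checked on simulated counts. No sequences were used here.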

Additional observations from a re-analysis of the deposited data

Results flagged for a closer look

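The GPD1L level of T2 library m21, 19.1 CPM, stood apart from the other 9 T2 libraries. The nearest of them was m17 at 13.6 CPM, and the gap was 0.582 of the range of the group, above the critical value of 0.466 for 10 libraries. Over the 6 members and 3 time points, 18 groups were examined, and chance alone marks about 1 in 20. The same library had the highest GPD2 level of T2, 18.4 CPM, and the lowest GPD1 level, 537 CPM. No test of GPD1L passed with or without it.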

How the results depend on the processing

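Each of the 18 tests of a member was repeated under 34 alternatives: 11 other settings and 23 fits without 1 library. The 6 members gave 3 calls in T1 minus T0, 1 in T2 minus T1 and 1 in T2 minus T0. Leaving out each library gave 1 to 3 calls in T1 minus T0 (1 without m10 or m13) and 0 to 2 in T2 minus T0 (0 without m13, 2 without m21). In T2 minus T0, DESeq2 and the fit with 1 surrogate variable each gave 2 calls, GOT1 being the gene added. With the fibre score as a covariate there were 0 calls in T1 minus T0 and 0 in T2 minus T1. In that fit 2 of 11545 genes were called in T1 minus T0 against 798 without it. In T2 minus T1, 2652 genes were called with the score against 3188 without it, and how many were the same genes was not counted. The scores of T1 overlap neither those of T0 nor those of T2, and the cause of the unequal loss was not tested. It also turned the sign of LDHA in T1 minus T0 (0.0795, adjusted p = 0.913) and of SLC16A3 in T2 minus T1 (-0.26, adjusted p = 0.531). The calls of the other pathway genes named above in T1 minus T0 were lost there too. So were those in T2 minus T1 of GAPDH, LDHA (0.17, adjusted p = 0.519), LDHB (-0.36, adjusted p = 0.357), SLC16A1, SLC16A7, TPI1, ALDOA, GK, GPAM, AGPAT2, PGP and ME3, whereas GPT2, AGPAT3 and ME1 were still called. With only the compared time points in the fit, T1 minus T0 lost LDHA (adjusted p = 0.0562), ALDOA (0.0653), MPC2 (0.0725) and GAPDH (0.0746), at nearly the same folds. The libraries m3 and m12 had the highest slow fibre sums of T1 and T0, though by the fibre score m12 (-3.64) lay close to m8 (-3.68). Leaving out m3 and m12 gave 2 higher and 0 lower members in T1 minus T0, with GOT2 called besides MDH1. GPD1 was then -0.54 (adjusted p = 0.0539) and GPD2 -0.53 (adjusted p = 0.13), and GAPDH was -0.56 (adjusted p = 0.115). Over all genes, T1 minus T0 gave 1512 calls in limma voom, 560 with only those time points in the fit and 346 to 904 without 1 library. T2 minus T1 gave 2652 to 4422 calls under the alternatives. T2 minus T0 gave 1851 calls, 2947 without m3 and m12, 2940 in limma voom and 986 to 2414 without 1 library. No setting moved the median over all genes by more than 0.1 on the log2 scale. No paired analysis was possible because the labels tie no library to a horse, and the numbers m1 to m23 only name the libraries. GPD1L and GPD2, with at most 362 and 403 counts per library, carry more counting error than the other members.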
